A study of Homo sapiens with 28 samples.

Results

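The kinesin genes described here are all genes whose array symbol begins with KIF and a digit, together with KIFC1, KIFC2 and KIFC3. The rule matched 45 of the 22357 genes named on the array, each read from its probe set with the highest mean. They comprise 14 kinesins known for roles in mitosis, 15 known for carrying cargo along microtubules, 13 with other roles and 3 antisense RNA genes named after a kinesin (KIF9-AS1, KIF23-AS1 and KIF25-AS1). CHL-1, an established line of human melanoma cells, was treated with BAY1238097, which blocks the acetyl-lysine-binding bromodomains of the BET proteins, or with DMSO, its solvent. The compound was given at 75 nM or 468 nM, named by the submitters as its IC50 and IC90, for 4 h or 24 h, with 5 arrays for each dose and time and 4 arrays for DMSO at each time. All groups are total RNA of this single line, grown and treated in culture. The labels do not say whether the arrays of a group stem from separate cultures, so the spread behind the p-values may be technical.

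Kinesins are motor proteins that walk along microtubules or take them apart. The mitotic kinesins build the spindle, align chromosomes and complete cell division, and in cycling cells the transcripts of many of them peak late in the cell cycle and fall when division stops. The transport kinesins carry vesicles, organelles and ciliary components, and are also used by cells that do not divide.

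The mitotic and transport kinesins moved apart at 468 nM and 24 h. All 13 mitotic kinesins that passed the filter on dim genes fell, to between 25.2% and 62.8% of the DMSO level, where 25.1% of all tested genes were called lower and 20.4% higher. KIF2A, listed under other roles although it also acts at spindle poles, was not called. Of 11 transport kinesins that passed, 5 rose, led by KIF3A at 200% of the DMSO level, and 0 fell. Among those that rose, KIFC2 was dim and KIF3C lost its call under several alternatives, as did KIF4B among the mitotic kinesins. KIF24 and KIF21A, listed under other roles, were called lower. At 75 nM, and at 4 h with either dose, 0 of 27 kinesin genes passed the test. Of all tested genes, 75 nM gave 0.345% lower and 0.334% higher at 4 h, and 0.474% and 0.398% at 24 h. The 0 at 75 nM is therefore no result about the kinesins. At 468 nM and 4 h, 6.95% of all tested genes were lower and 3.96% higher. Sets of consecutive title codes, which the labels do not explain, were also used as a replicate block. With that block, KIF5C passed at 75 nM and 24 h, and KIF18B at 468 nM and 4 h.

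The filter kept genes with a log2 intensity above 5 on at least 4 arrays, which left 9285 genes for testing. Among the kinesins 27 passed, namely 13 mitotic, 11 transport and 3 other genes (KIF2A, KIF21A and KIF24). All of these were above the filter value on all 28 arrays except KIF24, above it on 20 arrays, and KIFC2, above it on 7, of which 3 were arrays of 468 nM at 24 h. The 18 that did not pass were KIF2B among the mitotic genes, KIF1A, KIF5A, KIF17 and KIFC3 among the transport genes, KIF6, KIF7, KIF9, KIF12, KIF19, KIF21B, KIF25, KIF26A, KIF26B and KIF27 among the others, and the 3 antisense genes. Of these, KIF2B had a mean log2 intensity of 1.65 and KIF1A of 2.26. With no filter, KIF27 was called higher at 468 nM and 24 h (1.19, SE 0.23, adjusted p = 0.000514), from a mean level of 3.66 in DMSO to 4.85, below the filter value, where 7.65% of all genes were called higher. Against 75 nM, KIF27 was then higher by 0.77 (adjusted p = 0.0234), as 4.31% of all genes were, and KIF26B was at -0.71 (adjusted p = 0.0397), as 5.73% were lower. KIF27 and KIF26B are named after their values were seen. KIFC2 and KIF24 thus passed partly through the groups in which they were high. The tests below are those of limma over all genes, adjusted by Benjamini-Hochberg, and calls were made below an adjusted p of 0.05. A change is a log2 fold change, given with its standard error (SE), and a level is a log2 intensity.

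The arrays were alike in scale. Median log2 intensities lay between 2.44 and 2.49 on every array, correlations between 2 arrays over all probe sets lay between 0.92 and 0.956, and 0 pairs of arrays held identical values. SOX10, a melanocyte lineage regulator, was at 9.48 in DMSO and 10.07 at 468 nM (24 h). Only 2 of the 7 melanocyte lineage genes on the array, from 8 listed, passed the filter (SOX10 and S100B). Of the markers of other cell types on the array, 0 of 6 keratinocyte, 1 of 4 fibroblast, 1 of 5 leukocyte and 0 of 5 endothelial genes passed. Neither FBLN1 nor CD68, the genes that passed, was called at 468 nM and 24 h. CD68 was higher at 4 h, by 0.71 at 75 nM (adjusted p = 0.0405) and by 0.81 at 468 nM (adjusted p = 0.00144), and its 468 nM effect differed between the times (24 h minus 4 h) by -0.83 (adjusted p = 0.0122). The summed linear intensity of the 5 leukocyte genes on the array lay between 38.3 and 44.4 in DMSO, between 51.6 and 54.7 at 75 nM and between 45.8 and 68.7 at 468 nM, all at 4 h. At 24 h it lay between 39.9 and 54.999, between 35.0 and 46.4 and between 32.2 and 45.3 in the same order. The defining leukocyte gene PTPRC had a mean level between 2.39 and 3.905 in the 6 groups, highest in DMSO at 24 h, and CD3E between 1.02 and 1.996. SOX10 changed by -0.73 at 468 nM and 4 h (adjusted p = 0.000431) and by 0.58 at 24 h (adjusted p = 0.000851). The part of these genes in the kinesin results was not tested. RMA gives all arrays 1 intensity distribution, and a shift common to most genes is therefore lost.

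Promoters were looked at after the mitotic kinesins were seen to move together, and a link between promoter and change was not tested. Cell cycle genes of late phases often carry a CHR element (cell cycle genes homology region), which is bound by the DREAM repressor complex and by the MYBL2 and FOXM1 activator complexes, and often a CCAAT box, which is bound by NF-Y. The windows run from 100 bases before to 50 bases after the first listed RefSeq start in GRCh38.p14, and are printed 5′ to 3′ on the strand of the gene. Capitals mark CHR matches, TTTGAA or its reverse complement TTCAAA or TTTAAA, and CCAAT boxes, CCAAT or its reverse complement ATTGG. The 4 mitotic genes with the largest falls, the KIF4A and KIF4B pair, and KIF3A, the transport kinesin with the largest rise, are given.
KIF18B, chr17:44947724-44947873 (- strand): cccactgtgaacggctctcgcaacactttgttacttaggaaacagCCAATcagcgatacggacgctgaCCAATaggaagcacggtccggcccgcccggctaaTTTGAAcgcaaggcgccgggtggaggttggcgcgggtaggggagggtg
KIF14, chr1:200620702-200620851 (- strand): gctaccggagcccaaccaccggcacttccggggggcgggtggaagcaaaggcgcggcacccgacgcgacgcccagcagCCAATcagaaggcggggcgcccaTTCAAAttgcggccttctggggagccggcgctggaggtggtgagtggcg
KIF20A, chr5:138179012-138179161 (+ strand): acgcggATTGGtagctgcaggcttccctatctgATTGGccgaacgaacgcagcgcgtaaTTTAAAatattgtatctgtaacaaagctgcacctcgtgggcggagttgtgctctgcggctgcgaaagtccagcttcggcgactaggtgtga
KIFC1, chr6:33391723-33391872 (+ strand): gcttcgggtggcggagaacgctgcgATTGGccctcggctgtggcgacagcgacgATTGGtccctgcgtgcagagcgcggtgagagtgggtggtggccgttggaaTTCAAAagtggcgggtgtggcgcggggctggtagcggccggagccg
KIF4A, chrX:70290004-70290153 (+ strand): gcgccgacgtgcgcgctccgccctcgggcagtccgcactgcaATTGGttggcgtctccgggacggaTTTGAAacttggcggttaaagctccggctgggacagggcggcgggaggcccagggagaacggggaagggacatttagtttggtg
KIF4B, chr5:155013655-155013804 (+ strand): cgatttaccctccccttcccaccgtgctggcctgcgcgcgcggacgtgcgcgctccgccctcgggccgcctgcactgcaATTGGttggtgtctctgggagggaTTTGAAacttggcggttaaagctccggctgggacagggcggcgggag
KIF3A, chr5:132737497-132737646 (- strand): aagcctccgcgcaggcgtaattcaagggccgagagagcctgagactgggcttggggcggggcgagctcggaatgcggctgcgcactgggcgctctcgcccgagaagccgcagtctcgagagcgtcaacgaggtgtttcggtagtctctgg

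Over the full 300-base promoters (250 bases before to 50 after the start), searched on both strands for the same CHR and CCAAT motifs, 34 kinesin genes had an entry. A CHR match lay in 12 of 14 mitotic, 2 of 11 transport and 0 of 9 other kinesin promoters, beside 24.3% of all 27305 promoters and 15.6% of the 7506 with a tested gene. The 12 mitotic matches included 1 within 60 bases before or 50 bases after the start in all 12 genes. Among the mitotic genes, KIF22, which fell by 1.64 on the log2 scale, was without a CHR match, and so was KIF2B. KIF24 and KIF21A, other kinesins called lower at 468 nM and 24 h, also had none. The transport promoters with a CHR match were those of KIF5B and KIF16B, which were not called at 468 nM and 24 h. CCAAT lay in 11 of 14 mitotic, 3 of 11 transport and 3 of 9 other promoters, beside 35.7% of all promoters. Every count in this paragraph takes the first listed start of each gene. Another listed start of KIF5C held a CCAAT box, while another start of KIF22, of KIF6 and of KIF1B held none. Both elements lay in 10 of 14 mitotic and 1 of 11 transport promoters, beside 9.49% of all. In those 10 mitotic promoters a CCAAT box stood upstream of a CHR match, with 9 to 122 bases between their first bases, and 0 matches of different motifs overlapped. A match describes the letters of the window and is not a shown binding site, and its part in the changes was not tested. The table had no entry for KIF5A, KIF13B, KIF19, KIF21B, KIF26B, KIF27, KIFC2 and KIFC3.

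**Figure D1:**
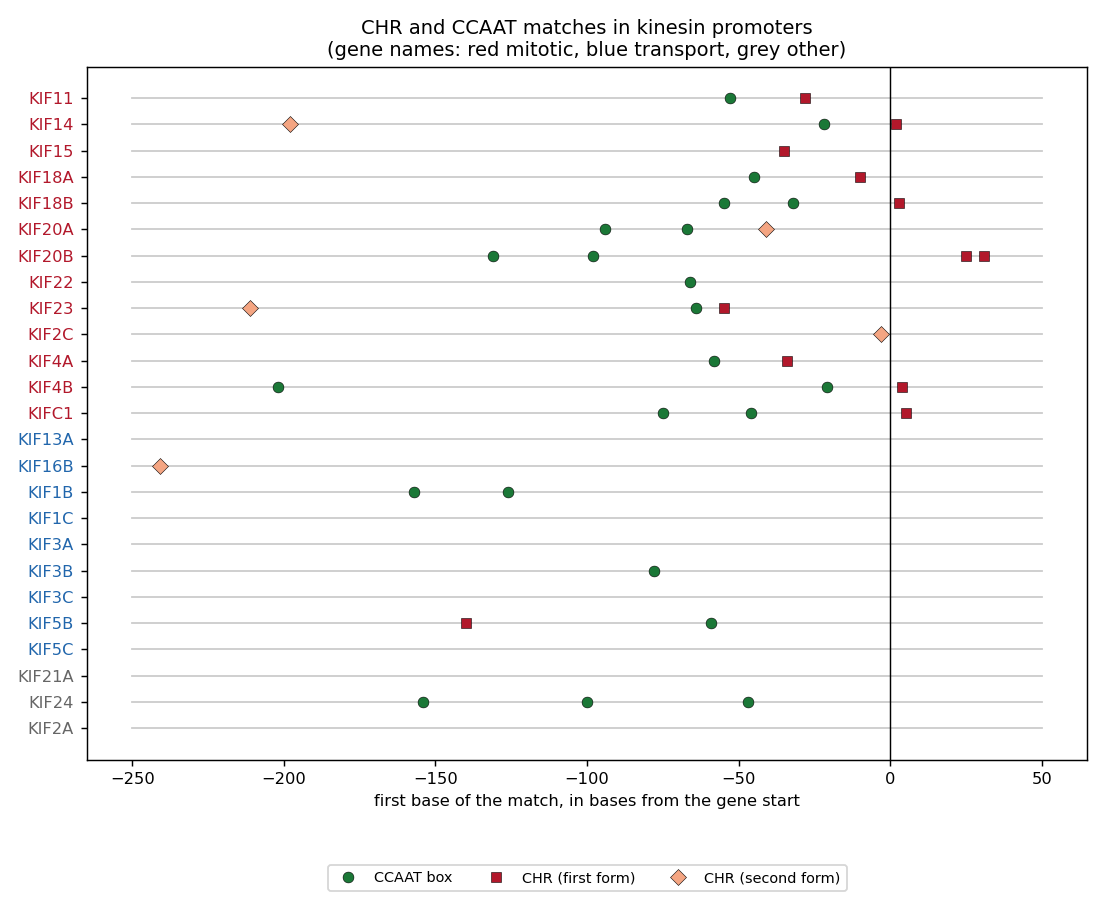
Position of CHR and CCAAT matches (horizontal axis, first base of the match in bases from the gene start) in the promoters of the kinesin genes that passed the filter and have an entry, 1 line per gene, with names in red for mitotic, blue for transport and grey for other kinesins. CHR matches lie near the start in 12 mitotic genes, and KIF22 shows a CCAAT box only.

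The first comparison asked what 468 nM changed after 24 h. All 13 mitotic kinesins were called lower, and in each the 5 treated arrays lay below the 4 DMSO arrays, which held for 17.1% of all tested genes. The median change of the 13 was -1.58, beside -0.019 for all tested genes. With arrays levelled on 8 reference genes, 1203 of 9337 tested genes were higher and 2478 lower, against 1896 and 2335 of 9285 without levelling. Of those reference genes, 3 were themselves called higher and 3 lower in this comparison, by between -0.49 and 0.74. In bulk samples, fewer cells of a type (here, cells in mitosis) and less RNA per cell cannot be told apart.

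KIF18B, a plus-end motor that shortens astral microtubules, fell most. Its DMSO arrays at 24 h read 7.77, 7.98, 8.002 and 7.62, and its 468 nM arrays read 6.06, 6.04, 5.09, 6.29 and 5.81. The groups did not overlap, and the change was -1.99 (SE 0.21, adjusted p = 3.2e-08), a fall to 25.2% of the DMSO level. At 75 nM the 5 arrays read 7.29, 7.68, 7.40, 7.74 and 7.64, and they overlapped the DMSO arrays.

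KIF14, which acts with citron kinase in the last step of cell division, read 8.60, 8.05, 8.51 and 8.14 in DMSO and 6.06, 6.92, 6.34, 7.26 and 6.30 at 468 nM. Its change was -1.75 (SE 0.17, adjusted p = 1.16e-08). KIF20A (MKLP2) brings the chromosomal passenger complex, which holds Aurora B, to the central spindle. It read 9.07, 9.42, 9.44 and 8.78 in DMSO and 7.25, 7.41, 7.32, 8.12 and 7.17 at 468 nM, a change of -1.73 (SE 0.16, adjusted p = 4.05e-09). The array at 8.12, replicate 4, was the highest of its group for both genes.

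KIFC1, a minus-end motor that focuses spindle poles and clusters extra centrosomes, read 7.89, 8.01, 7.94 and 7.79 in DMSO. At 468 nM its arrays spread wider, at 5.93, 5.94, 6.50, 7.25 and 5.56, with an SD of 0.66 against 0.10 in DMSO. The change was -1.67 (SE 0.19, adjusted p = 1.5e-07). Its 4 probe sets changed by -1.67, -1.67, -1.69 and 0.303, where the first 2 held identical values and the last was dim, with a mean log2 intensity of 2.99.

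KIF22, a chromokinesin that pushes chromosome arms towards the equator, read 8.65, 8.94, 9.14 and 8.83 in DMSO and 7.43, 6.85, 7.04, 7.80 and 7.16 at 468 nM. The change was -1.64 (SE 0.15, adjusted p = 5.19e-09). KIF23 (MKLP1), which forms centralspindlin with RACGAP1, read 9.007, 9.003, 9.16 and 8.61 in DMSO and 7.04, 7.23, 7.18, 7.77 and 7.56 at 468 nM. The change was -1.59 (SE 0.17, adjusted p = 3.29e-08), and every treated array lay below every DMSO array.

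KIF11 (Eg5), which slides antiparallel microtubules apart to make the spindle bipolar, read 9.42, 9.11, 9.39 and 8.87 in DMSO. At 468 nM its arrays read 7.26, 7.62, 7.62, 8.20 and 7.41, a fall to 33.4% of the DMSO level (-1.58, SE 0.15, adjusted p = 5.78e-09). KIF15, which can partly stand in for KIF11, changed by -1.34 (adjusted p = 6.21e-06), so both motors for spindle bipolarity were lower.

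**Figure D2:**
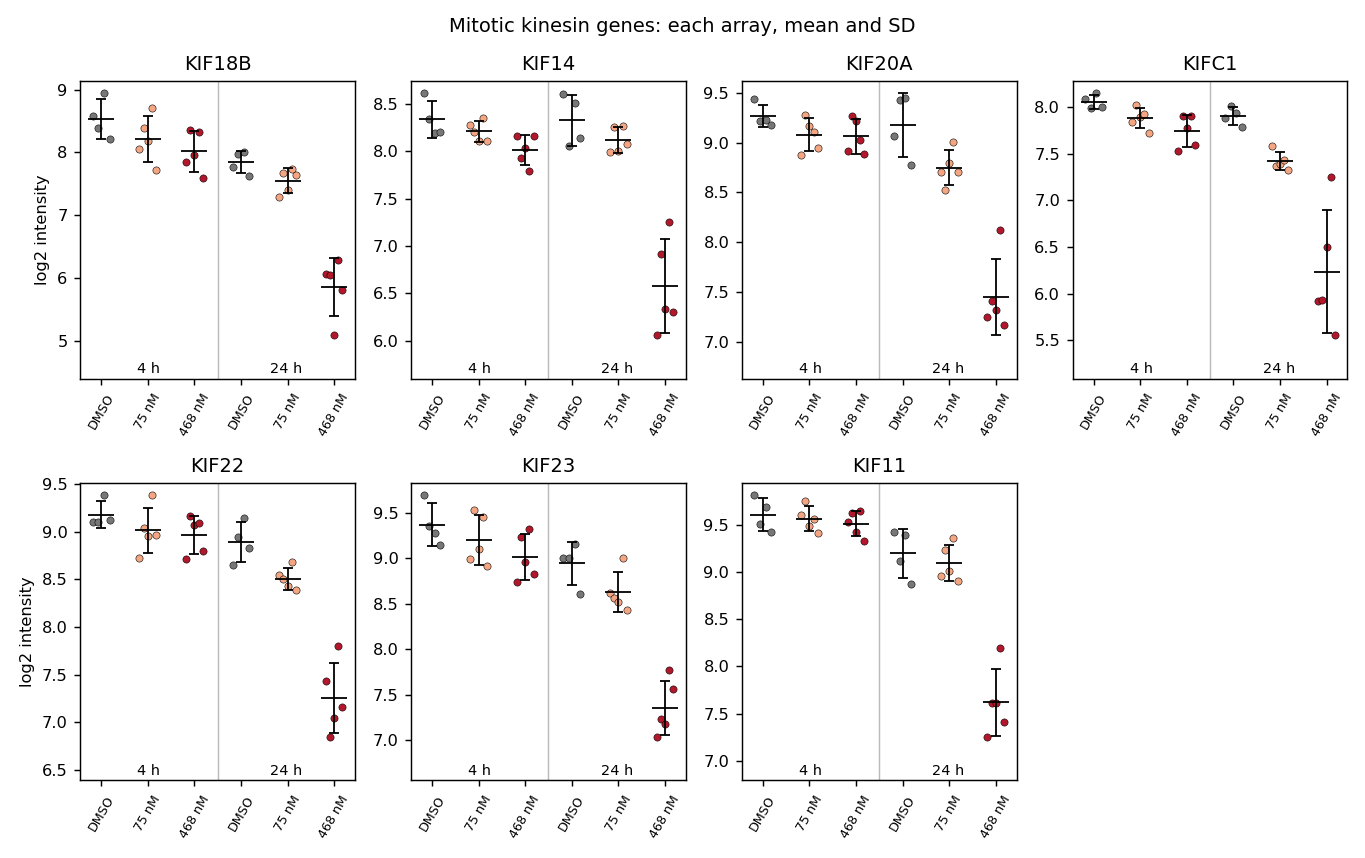
Log2 intensity (vertical axis, a scale of its own for each gene) of the 7 mitotic kinesins with the largest falls, for each array in the 6 groups (horizontal axis), with the group mean and SD as bars. At 468 nM and 24 h all 5 arrays lie below the 4 DMSO arrays for each gene.

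The remaining mitotic kinesins were also lower than in DMSO. KIF2C (MCAK), a depolymerase at the centromere, changed by -1.43 (adjusted p = 9.36e-09). KIF18A, which damps chromosome movements at the equator, changed by -1.36 (adjusted p = 2.73e-06), and KIF20B, which acts in cytokinesis, by -1.13 (adjusted p = 5.47e-07). KIF4A, a chromokinesin that partners PRC1 on the central spindle, changed by -1.16 (adjusted p = 1.28e-05).

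KIF4B changed least, by -0.67 (SE 0.24, adjusted p = 0.026). Its DMSO arrays read 6.58, 7.18, 6.48 and 6.61, and its 468 nM arrays 6.23, 6.37, 6.37, 5.62 and 5.63. The call was lost without DMSO replicate 2 (adjusted p = 0.113) or without 468 nM replicates 4 (0.0696) or 5 (0.0705), and with no filter (0.0682). KIF4B is a near-identical copy of KIF4A, and the promoters printed above share a run of 50 bases, where the longest run KIF4A shares with any other kinesin promoter is 11 bases. Its probe set may therefore read transcripts of KIF4A as well, and its value is uncertain.

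One array differed in extent. Replicate 4 of 468 nM at 24 h was the highest of its group for 12 of 13 mitotic kinesins, and its median deviation from the DMSO mean over the 13 was -1.0001, where the other 4 arrays lay between -1.79 and -1.58. Without it the median change of the 13 was -1.69 and 12 of 13 were called, with KIF4B the exception. On the arrays of the same set of title codes, which the labels do not explain, replicate 4 of 75 nM at 24 h was the highest of its group for 11 of the 13 genes and replicate 3 of DMSO at 24 h for 7. In the last such set, replicate 4 of DMSO at 4 h and at 24 h and replicate 5 of 75 nM at 4 h were each the lowest for 9 of 13. Replicate 5 of 468 nM, of the same set, was the lowest for 4 at 4 h and for 3 at 24 h. The part of the code set in the results was not tested. The 11 transport kinesins had a median deviation of 0.128 on replicate 4 of 468 nM and of 0.182 to 0.445 on the other 4. The median SD of the 13 genes was 0.406 at 468 nM and 0.235 in DMSO at 24 h.

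Among the transport kinesins, 5 of 11 were called higher and 0 lower, and 4 had no overlap between the groups (13% of all tested genes had none and were higher). Their median change was 0.318. KIF3A, KIF3B and KIF3C are motor subunits of the kinesin-II family, which moves cargo in cilia and axons. KIF3A read 7.12, 7.21, 6.81 and 6.65 in DMSO and 7.71, 8.07, 8.04, 7.98 and 7.93 at 468 nM, and changed by 0.998 (SE 0.12, adjusted p = 2.52e-07). Its 75 nM arrays, at 7.36, 7.43, 7.31, 7.01 and 7.17, lay between the other groups and overlapped those of DMSO.

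KIF3B, the usual partner of KIF3A, read 8.08, 7.94, 7.64 and 7.43 in DMSO and 8.66, 8.499, 8.22, 8.39 and 8.51 at 468 nM. It changed by 0.68 (SE 0.12, adjusted p = 3.03e-05). KIF3C, the alternative partner, changed by 0.39 (SE 0.15, adjusted p = 0.0356), with overlapping arrays. DMSO replicate 1 of KIF3C read 8.64, above 4 of the 5 treated arrays. The KIF3C call was lost without any of 6 arrays in turn, with adjusted p between 0.056 and 0.167, and when arrays were levelled on reference genes (adjusted p = 0.205), no filter was used (adjusted p = 0.0973) or only the groups compared were fitted (adjusted p = 0.11).

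KIFC2, a minus-end motor studied mainly in neurons, was dim, with 4.55, 4.00, 3.98 and 4.68 in DMSO and 5.56, 4.88, 4.99, 5.30 and 5.31 at 468 nM. It changed by 0.91 (SE 0.29, adjusted p = 0.0118), with no overlap. KIF5C, a conventional kinesin heavy chain, read 6.72, 6.81, 6.83 and 6.59 in DMSO and 7.08, 7.42, 7.28, 7.15 and 7.39 at 468 nM. It changed by 0.53 (SE 0.13, adjusted p = 0.00128).

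**Figure D3:**
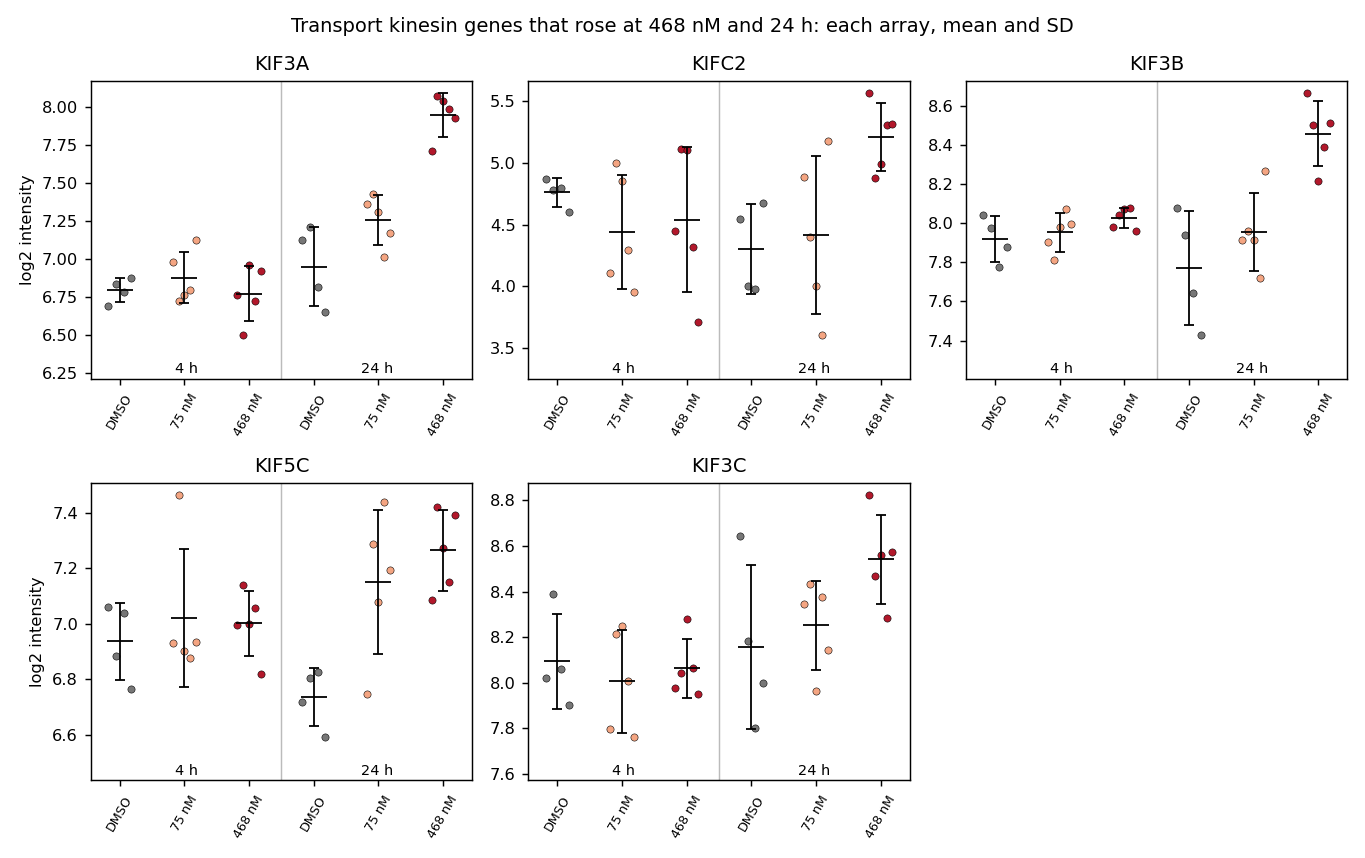
Log2 intensity (vertical axis, a scale of its own for each gene) of the 5 transport kinesins called higher at 468 nM and 24 h, for each array in the 6 groups (horizontal axis), with the group mean and SD as bars. KIF3A is highest on all 5 arrays of 468 nM at 24 h, whereas the KIF3C arrays overlap those of DMSO.

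The remaining 6 transport kinesins did not pass the test. KIF5B, the broadly used conventional kinesin, differed by 0.08 (95% interval -0.088 to 0.257, adjusted p = 0.428). The interval of KIF13B, at 0.05, ran from -0.275 to 0.368. KIF1C had -0.14, KIF16B, an early endosome motor, -0.15, and KIF13A -0.17. KIF1B, a carrier of synaptic vesicle precursors and mitochondria, had 0.32 with an adjusted p of 0.063. KIF1B was called higher with a filter at log2 7 (adjusted p = 0.0462), with repeated quantile normalization (0.0457), and without DMSO replicate 1 (0.0162) or 468 nM replicate 5 (0.0405). An uncalled gene is not shown to be unchanged, and levelling on reference genes moved the number of transport kinesins below 0 from 3 to 4.

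With the members as listed, the 2 classes did not overlap in this comparison. The mitotic kinesin with the smallest fall, KIF4B at -0.67, lay below the lowest transport kinesin, KIF13A at -0.17, and the class medians differed by -1.9. Of the other kinesins, KIF24, which removes microtubules at centrioles and restrains ciliation, changed by -1.75 (SE 0.24, adjusted p = 1.88e-06), although its level on the treated arrays lay between 3.24 and 4.38, below the filter value. KIF21A, which limits microtubule growth at the cell cortex, changed by -0.64 (SE 0.12, adjusted p = 0.000122). KIF2A, a depolymerase of spindle poles and of neurites, had -0.26 (adjusted p = 0.175), and was called lower without DMSO replicate 4 (adjusted p = 0.0117). Counted as mitotic, KIF2A would be a member not called. KIF21A, counted as transport, would be a member called lower.

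**Figure D4:**
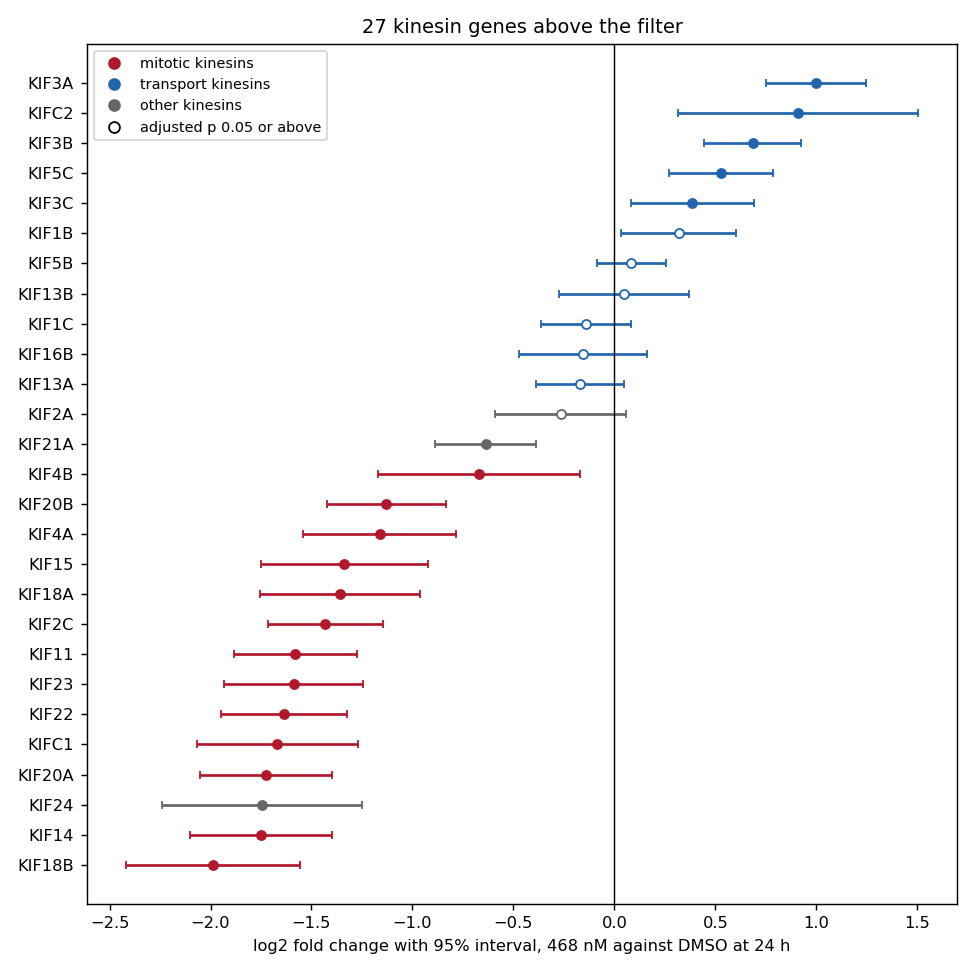
Change at 468 nM against DMSO at 24 h (horizontal axis, log2 fold change with its 95% interval) of the 27 kinesin genes that passed the filter, with mitotic genes in red, transport genes in blue and others in grey. Filled points passed the test at an adjusted p below 0.05. All 13 red points lie below every blue point.

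The second comparison asked whether the higher dose differed from the lower one at 24 h. At 468 nM against 75 nM, 12 of 13 mitotic kinesins were lower (17.4% of all tested genes were), with KIF18B at -1.69 (SE 0.20) and KIF11 at -1.47 (SE 0.14). KIF4B was the exception, at -0.49 (adjusted p = 0.104), and was called without 75 nM replicate 3 (adjusted p = 0.0223). Of the transport kinesins 3 were higher (13.4% of all tested genes were), namely KIF3A at 0.69, KIFC2 at 0.80 and KIF3B at 0.50. KIFC2 lost this call without any of 4 arrays in turn, with adjusted p between 0.0503 and 0.103, and with no filter (adjusted p = 0.0739). KIF24 was lower by 1.62 on the log2 scale, and KIF21A changed by -0.34, a call lost without any of 4 arrays in turn (adjusted p between 0.0514 and 0.0921) and with levelling on reference genes (adjusted p = 0.137).

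The 75 nM dose alone gave no call. At 24 h 0 of 27 kinesins passed, where 0.474% of tested genes were lower and 0.398% higher (44 and 37 genes, or 79 and 6 with arrays levelled on reference genes), although all 13 mitotic kinesins lay below 0, with a median of -0.209 beside -0.016 for all genes. The largest of these differences, in KIFC1, was -0.49 (SE 0.19), and its arrays did not overlap those of DMSO (4.18% of tested genes were lower without overlap). Its unadjusted p was 0.0191 and its adjusted p 0.218. KIF21A, listed under other roles, also lay below DMSO without overlap. By unadjusted p under 0.05, KIF20A, KIF21A, KIF22 and KIFC1 lay below DMSO, as 8.81% of tested genes did, and KIF3A and KIF5C above it, as 7.11% did. Without 468 nM replicate 4, which enters only through the shared spread, the adjusted p of KIFC1 was 0.0487, and without 75 nM replicate 1 that of KIF5C was 0.0426. With title-code sets as a replicate block, the adjusted p of KIF5C was 0.0244. The effects of the doses share their DMSO arrays.

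At 4 h the kinesins gave no call at either dose in the main fit. With title-code sets as a replicate block, KIF18B was called lower at 468 nM (-0.492, adjusted p = 0.0442). With 468 nM, 6.95% of tested genes were lower and 3.96% higher (645 and 368 genes, or 902 and 177 with levelling), and the median of the 13 mitotic kinesins was -0.21. KIF18B had -0.52 (adjusted p = 0.125) and KIF23 -0.35 (adjusted p = 0.207), the 2 mitotic genes with an unadjusted p under 0.05, as 13.8% of tested genes had on the lower side. Outside the mitotic class, KIF13A at -0.24 (adjusted p = 0.164) and KIF24 at -0.55 (adjusted p = 0.161) also lay below DMSO by that rule. KIF14 and KIFC1 had arrays that did not overlap those of DMSO, as 8.25% of tested genes did on the lower side. At 75 nM, where 0.345% of tested genes were lower and 0.334% higher, the median was -0.163 and 1 mitotic gene, KIF4B at 0.51, had an unadjusted p under 0.05, as 3.24% of tested genes had on the higher side. Between the doses at 4 h, 0 kinesins were called and 1 had an unadjusted p under 0.05, KIF13A at -0.27, as 6.62% of tested genes had on the lower side. Of all tested genes 1.43% were called lower and 1.13% higher (133 of 238 calls were lower, or 161 of 198 with levelling).

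The effect of 468 nM differed between the times. The difference of the effects (24 h minus 4 h) was called below 0 in 12 of 13 mitotic kinesins, where 12.7% of tested genes were, and above 0 in 3 transport kinesins, where 10.8% were. KIF20A had the largest difference, -1.52 (SE 0.22, adjusted p = 2.95e-05), and KIF11 had -1.48 (adjusted p = 1.92e-05). KIF3A had 1.02 (adjusted p = 1.07e-04), KIFC2 1.13 (adjusted p = 0.0447) and KIF3B 0.575 (adjusted p = 0.0122). With no filter, or with arrays levelled on reference genes, only 1 of these 3, KIF3A, was called. The KIFC2 call was also lost without any of 12 arrays in turn (adjusted p between 0.0507 and 0.0919). KIF4B missed the threshold (adjusted p = 0.0533), and was called with an intensity trend (0.0418), a filter at log2 7 (0.034) or without any of 8 arrays in turn (0.0349 to 0.0466). KIF5C, at 0.464 (adjusted p = 0.0593), was called with only the groups compared (0.0297), a filter at log2 7 (0.0397) or without any of 4 arrays in turn (0.0329 to 0.0466). KIF3C was called without DMSO replicate 1 of 24 h (adjusted p = 0.0331). For 75 nM 0 kinesins were called, where 0% of tested genes were below and 0.0323% above 0, and 0 had an unadjusted p under 0.05, as 635 of the 9285 genes had.

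Time in DMSO alone gave 0 calls among the 27 kinesins, where 2.61% of tested genes were lower and 2.63% higher. Of the 13 mitotic kinesins 12 lay below 0, with a median of -0.271, and 4 had an unadjusted p under 0.05 (KIF11, KIF18B, KIF23 and KIF2C), as 11.1% of tested genes had on the lower side. KIF18B read 8.57, 8.39, 8.94 and 8.21 in DMSO at 4 h, above its 4 arrays at 24 h, a difference of -0.69 (adjusted p = 0.0642), and 6.65% of tested genes were lower without overlap. Of the transport kinesins, 2 were also lower without overlap, KIF1C at -0.32 (adjusted p = 0.0907) and KIF5B. KIF1C had an unadjusted p under 0.05. Of the 11 transport kinesins 6 lay below 0, with a median of -0.0146. KIF18B was called with a filter at log2 7 (adjusted p = 0.0373), with an intensity trend (0.0473) and without either of 2 arrays (0.0369 and 0.0458). With title-code sets as a replicate block, KIF18B (adjusted p = 0.0123), KIF11 (0.0211), KIF23 (0.0436) and the transport kinesin KIF1C (0.0432) were called lower. With arrays levelled on reference genes, 9 of 13 mitotic kinesins lay below 0, and of all tested genes 60 were lower and 724 higher, against 242 and 244 without levelling.

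**Figure D5:**
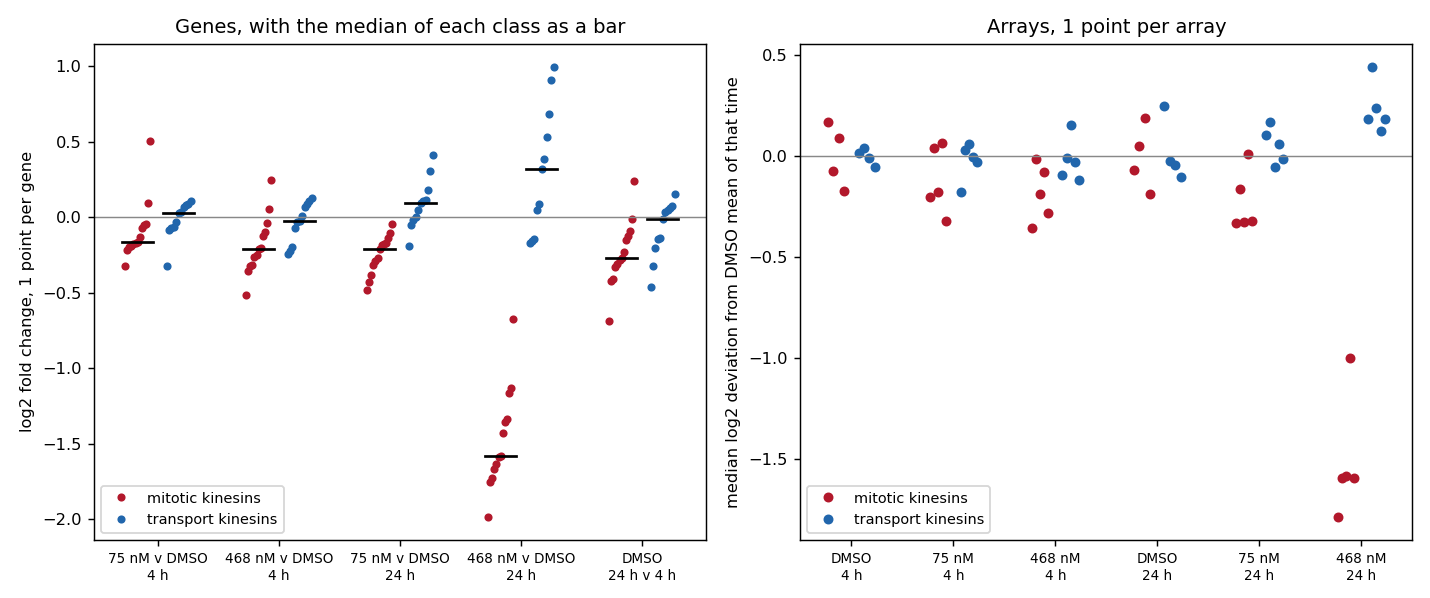
Left, log2 fold change (vertical axis) of each mitotic (red) and transport (blue) kinesin in 5 comparisons, with the class median as a bar. Right, the median deviation of each class from the DMSO mean of that time (vertical axis), 1 point per array in the 6 groups, where 4 of the 5 mitotic points of 468 nM at 24 h lie between -1.79 and -1.58 and replicate 4 lies at -1.0001.

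Genes that work with the mitotic kinesins moved the same way at 468 nM and 24 h. All 12 measured partners were lower, with a median of -1.5, where 25.1% of all tested genes were lower and 20.4% higher. CDCA8, a subunit of the passenger complex that KIF20A carries, changed by -2.09 (SE 0.22), and the kinase AURKB of that complex by -1.69. AURKA, which phosphorylates KIF11, changed by -2.08 and PLK1, a regulator of mitotic entry, by -1.72. CENPE, itself a kinesin that the naming rule does not reach, had -1.14 (adjusted p = 4.08e-06). AURKA at -0.86 (adjusted p = 0.00415) and PLK1 at -0.39 (adjusted p = 0.0367) were lower at 4 h with 468 nM, 2 of the 12 partners, where 6.95% of all tested genes were lower.

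Of the listed regulators of cell cycle transcription, E2F genes among them, 10 of 12 were lower and 0 higher, beside the same 25.1% and 20.4% of all tested genes. E2F8 fell by 3.08 on the log2 scale (SE 0.16), FOXM1 by 1.43, E2F1 by 1.37 and MYBL2 by 1.37. Of 13 measured cargo adaptors, 4 were higher and 1 lower. With 20.4% of all tested genes higher and 25.1% lower, these counts describe single genes and are no result about the adaptors as a list. KIFAP3, the accessory subunit of KIF3A and KIF3B, changed by 0.39 (adjusted p = 0.0123). MAPK8IP3, a link between kinesin and vesicles, changed by 0.95, TRAK2, a mitochondrial adaptor, by 0.55 and CLSTN1 by 0.54. MAP7, which recruits KIF5B to microtubules, changed by -0.89 (adjusted p = 0.00188). Dynein is the motor that moves cargo the other way, and 6 of its 19 measured subunits and regulators were higher and 2 lower, again beside 20.4% and 25.1% of all tested genes, which is no result about dynein as a list. DYNLT1 at 0.56 and DYNLRB1 at 0.49 had the largest rises, and BICD2 at -0.52 and NDE1 at -0.38 were the 2 that fell.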

How the data were processed

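Gene expression was measured on 28 Affymetrix arrays. The authors deposited linear intensity values for 53617 probe sets, summarised with RMA per the submitters' processing notes. No version of RMA and no genome build for the probe sets is given in the sources used here. RMA subtracts background, equalises the distributions of the arrays and summarises probes. The deposited intensity values were converted to log2 here. A single gene symbol was listed for 23871 probe sets and several for 1842, while 27904 had no entry. A gene was read from the probe set with the highest mean among those naming it alone, which gave 22357 genes. Symbols were updated with an NCBI RefSeq table (GRCh38.p14), and promoters come from RefSeq. Genes with a log2 value above 5 on at least 4 arrays were tested (9285). In limma 3.58.1 (R 4.3.3), 1 model of 6 group means covered all 28 arrays (22 residual degrees of freedom and 3.84 from the prior), and p-values were adjusted by Benjamini-Hochberg within each of 9 comparisons. Tables were prepared with Python 3.11.15, and the fit was tested on simulated data. Array number limits the precision.

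The members and gene lists were chosen with earlier results of these data known, so lists are described by counts and medians only. Any kinesin called in a comparison could be named. Full values went to up to 7 mitotic and up to 7 transport kinesins called at 468 nM and 24 h, ordered by size of change, first those without overlap between arrays, then other called ones. Up to 4 called genes per direction and list could be named among the partners, adaptors, dynein genes and regulators, and CENPE was named outside that rule, after its value was seen. Replicate numbers only name arrays, in listed order. Alternatives were no filter, a filter at log2 7, levelling on 8 reference genes, repeated quantile normalization, only the groups compared, the mean of all probe sets, an intensity trend, a replicate block, other class membership and each array left out in turn. Coordinates of probe sets were not used here.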

Additional observations from a re-analysis of the deposited data

Results flagged for a closer look

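In 10 of 162 groups of arrays examined for the 27 kinesins, 1 array stood far from its neighbours. Chance flags about 1 in 20 groups. KIF15 read 7.404 on replicate 1 of DMSO at 4 h (nearest 7.223). On replicate 4 of 468 nM at 24 h, KIF15 read 6.430 (nearest 5.490) and KIF20A 8.118 (nearest 7.410). KIF22 read 9.386 on replicate 3 of DMSO at 4 h (nearest 9.117). KIF24 read 4.731 on replicate 1 of 75 nM at 24 h (nearest 5.352). On replicate 3 of 468 nM at 4 h, KIF13A read 6.908 (nearest 6.701) and KIF1B 7.878 (nearest 7.644). On replicate 2 of 468 nM at 24 h, KIF13B read 8.309 (nearest 7.846) and KIF1B 8.474 (nearest 7.848). KIF5C read 7.465 on replicate 2 of 75 nM at 4 h (nearest 6.934).

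The effect of 468 nM differed between 24 h and 4 h in 17 kinesins by the interaction term in limma at an adjusted p below 0.05. The difference (24 h minus 4 h) in the mitotic genes was -1.519 for KIF20A, -1.481 for KIF11, -1.471 for KIF18B, -1.426 for KIF14 and KIF22, -1.396 for KIF2C and -1.353 for KIFC1. It was -1.234 for KIF23, -1.216 for KIF4A, -1.108 for KIF18A, -1.073 for KIF15 and -1.009 for KIF20B. Among the others it was -1.190 for KIF24 and -0.560 for KIF21A. Among the transport genes it was 1.132 for KIFC2, 1.022 for KIF3A and 0.575 for KIF3B.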

How the results depend on the processing

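The 54 kinesin changes called, over all comparisons, gave 1938 values under the alternatives, of which 1895 kept direction and call, 43 kept direction but lost the call and 0 reversed. Called under every alternative that tested them were 47 of the 54. KIF24 and KIFC2, with highest levels of 6.473 and 5.565, were not tested with the filter at log2 7. The exceptions were KIF4B and KIF3C (468 nM against DMSO at 24 h), KIF21A and KIFC2 (468 nM against 75 nM at 24 h), and KIF21A, KIF3B and KIFC2 (468 nM effect at 24 h minus at 4 h), and the cause was not tested. At 468 nM against DMSO (24 h), the count of mitotic kinesins lower ranged from 12 to 13 and that of transport kinesins higher from 4 to 6. The 3 transport kinesins whose 468 nM effect rose between the times became 1 with no filter and 1 with levelling on reference genes. The labels do not state which arrays belong together, and sets of consecutive title codes taken as a replicate block had a median correlation of deviations of 0.0982, with 33 of 66 pairs above 0.1 and a lowest of -0.127, beside a median of -0.02 between sets. Of 28 arrays, 22 had their best partner in their own set, a hint from the data and not the design. The first set held replicate 1 of each dose and time and no DMSO array, and the main fit did not use the sets. With that replicate block 1 mitotic kinesin was lower at 468 nM and 4 h (KIF18B), 1 transport kinesin was higher at 75 nM and 24 h (KIF5C) and 3 mitotic kinesins (KIF11, KIF18B and KIF23) were lower with time in DMSO, where the counts were otherwise 0. The block also called KIF1C lower with time in DMSO, KIF1B higher at 468 nM and 24 h against DMSO (adjusted p = 0.026) and 75 nM (0.0462), and KIF4B (0.0389) and KIF5C (0.0265) in the difference between the times. The last count was 1 with a filter at log2 7 and 1 with an intensity trend (KIF18B in both). With 1 array left out in turn, the counts at 75 nM and 24 h ranged from 0 to 1 for mitotic kinesins lower and from 0 to 1 for transport kinesins higher, and the count in DMSO from 0 to 1. Over all alternatives, 15 kinesin results that were not called passed in 41 values. Levelling on reference genes moved the median of all genes most for DMSO at 24 h against 4 h, from 0.00096 to 0.154 on the log2 scale.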
